A study of Homo sapiens with 12 samples.

Results

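The 10 genes described here drive or restrain the passage of cells out of G1, the phase before DNA synthesis. They are the D-type cyclin genes CCND1, CCND2 and CCND3, the E-type cyclin genes CCNE1 and CCNE2, the kinase genes CDK2, CDK4 and CDK6, the tumor suppressor gene RB1 and the transcription factor gene E2F1. They were listed by name as a G1 set, with earlier results of these data known. All 10 were found among the 22784 gene symbols with an expression value, and all 10 were among the 14839 symbols that passed the filter on low values, a normalized count of at least 10 in at least 3 libraries.

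D-type cyclins are made in response to growth signals and bind CDK4 or CDK6. These kinases phosphorylate RB1, the retinoblastoma protein, which otherwise binds E2F1 and related factors and keeps the genes of DNA synthesis silent. E-type cyclins, themselves encoded by E2F target genes, bind CDK2, complete RB1 phosphorylation and help to start DNA replication. Tissues differ in which D-type cyclin they use and in how much CDK6 they have, and RB1 is among the genes often lost in leiomyosarcoma. The BET proteins read acetylated lysines on chromatin and support transcription, and the question here was which genes of the G1 machinery changed when BET bromodomains were blocked.

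The SK-UT-1 line was established from a human uterine leiomyosarcoma (uLMS), a malignant tumor of the smooth muscle of the uterus. The cells were exposed for 48 h to 5 µM JQ1, to 5 µM I-BET-762 or to the DMSO vehicle, and total RNA was sequenced. Both inhibitors are triazolodiazepines that occupy the acetyl-lysine pocket, JQ1 with a thiophene and I-BET-762 with a benzene ring fused to the diazepine. Values were analysed for 3 DMSO, 4 JQ1 and 3 I-BET-762 libraries. Of the labelled samples, replicate 16 (DMSO) and replicate 24 (I-BET-762) were not used here. All groups share the 1 cell line, with no genetic change in the labels, and each inhibitor was given at 1 dose for 1 time. No source used here says that the libraries of a group came from separate cultures, so the p-values measure the spread between these libraries, which may be technical. In bulk RNA, fewer cells that express a gene and less RNA per cell cannot be told apart.

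The libraries held 35564586 to 39658989 reads on genes, and the least covered of the 10 genes, CDK6, still had 182 reads in the library where it was lowest. Values are normalized counts, which are reads divided by a scaling factor per library, and fold changes are on the scale of log2 of the normalized count plus 1, which understates changes of low genes. A gene was called when the limma adjusted p-value over all tested genes was under 0.05 and the fold change was over 1.5. The markers of the labelled cell type were only in part present. The smooth muscle genes ACTA2, TAGLN, CALD1 and SMTN and the mesenchymal gene VIM were abundant in DMSO. The smooth muscle genes CNN1 and DES were lower, with DMSO means of 95.4 and 187 normalized counts, MYOCD was near 0 and MYH11 had no value. In any library the leukocyte markers summed to at most 4.01 and the endothelial markers to at most 7.40 normalized counts. The summed smooth muscle markers were 20340 to 20968 in DMSO, 10619 to 11229 under JQ1 and 11758 to 12327 under I-BET-762. With each inhibitor 5 of the 6 tested markers were called lower, beside 22.8% (JQ1) and 17.9% (I-BET-762) of all tested genes. The summed epithelial markers were 1212 to 1271 in DMSO, 511 to 602 under JQ1 and 497 to 544 under I-BET-762. Both lists moved with the treatment, and their part in the results below was not tested.

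Stretches of DNA upstream of the start site are shown for CDK6, the 1 gene with an entry in the RefSeq promoter table that was called with both inhibitors, and for E2F1, which was not called with either and whose protein binds sites of the kind searched. The table (GRCh38.p14) held promoters for 6 of the 10 genes, 9 entries in all, and had none for CCND1, CCND2, CCNE2 and CDK2. The windows are the 250 bases before the start, 5′ to 3′ on the gene's strand. The CDK6 window is chr7:92836574-92836823 on the minus strand, with GC boxes (GGGCGG on either strand) in capitals, and the E2F1 window is chr20:33686386-33686635 on the minus strand, with E2F letters (TTTCCCGC, TTTGGCGC, TTTGCCGC or TTTCGCGC on either strand) in capitals. Where the searched motifs overlap, each match was counted.
CDK6: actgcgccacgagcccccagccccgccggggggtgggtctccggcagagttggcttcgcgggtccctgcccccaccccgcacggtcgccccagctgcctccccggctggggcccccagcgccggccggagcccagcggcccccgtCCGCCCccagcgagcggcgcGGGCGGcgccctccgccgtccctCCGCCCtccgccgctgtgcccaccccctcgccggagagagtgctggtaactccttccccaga
E2F1: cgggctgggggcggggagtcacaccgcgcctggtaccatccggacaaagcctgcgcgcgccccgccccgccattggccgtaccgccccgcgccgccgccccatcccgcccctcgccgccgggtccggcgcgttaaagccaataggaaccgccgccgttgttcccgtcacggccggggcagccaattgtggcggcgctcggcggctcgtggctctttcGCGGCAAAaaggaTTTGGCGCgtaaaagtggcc

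The CDK6 window held 3 GC boxes, no E2F letters and no E-box (CACGTG), and its GC content was 80%. The E2F1 window held 2 E2F matches, from 33 to 26 and from 20 to 13 bases before the start, and 5 GC boxes that are not capitalized. Of 35116 promoters of the same length, 2.79% held the E2F letters, 42.6% a GC box and 6.34% an E-box. Of the 9 entries of the G1 genes, 1 held E2F letters (E2F1), 6 held a GC box and 1 held an E-box (CDK4, with 3 matches). Of these windows, 6 lie inside the annotated gene (all those of CCND3, CDK4 and RB1 and the second entry of CDK6, which held no GC box), and 3 of them (CDK4, RB1 and 1 of CCND3) overlap exons of that gene. A match is a description of letters and not evidence of binding.

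**Figure D1:**
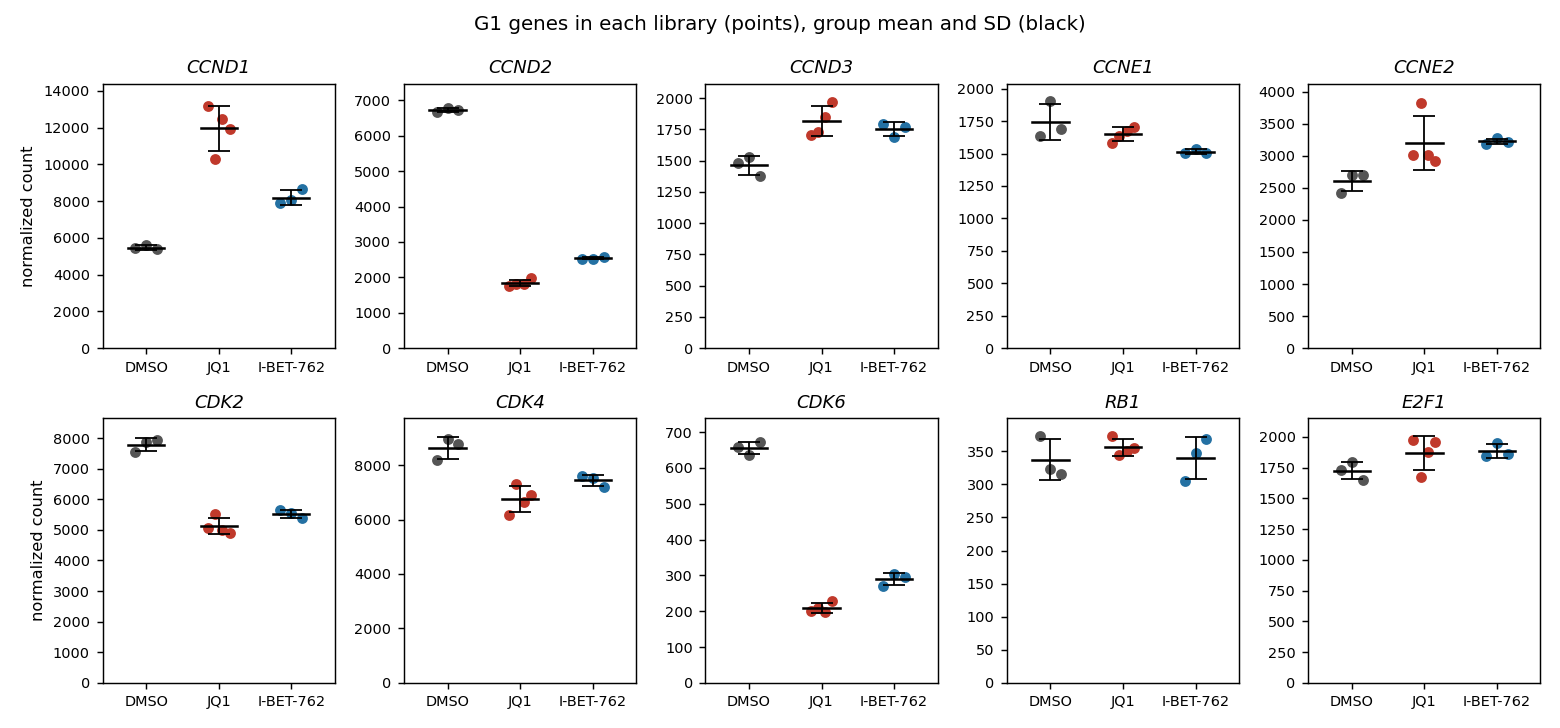
Normalized counts (vertical axes, each from 0) of the 10 G1 genes in each library. Points are libraries of the DMSO, JQ1 and I-BET-762 groups, and black lines are the group mean and SD (3, 4 and 3 libraries). CCND2 and CDK6 lie far below DMSO in every treated library and CCND1 above it, while RB1 overlaps between all groups.

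The D-type cyclin genes moved in opposite directions. CCND1 rose with JQ1 and CCND2 fell with both inhibitors, and per exon length the share of CCND1 in the D-type sum was larger in every treated library. CCND3 stayed within 1.5-fold of DMSO.

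CCND1 (ENSG00000110092.4, hg38 chr11:69641156-69654474, plus strand) encodes cyclin D1, the main D-type cyclin of many epithelial and mesenchymal cells. Its normalized counts were 5431, 5616 and 5378 in DMSO, 13173, 10272, 12458 and 11912 with JQ1, and 7883, 8061 and 8647 with I-BET-762. The 3 groups did not overlap, and the order DMSO, I-BET-762, JQ1 held for every library. CCND1 rose 2.17-fold with JQ1, a log2 fold change of 1.12 (SE 0.07, limma adjusted p = 5.05e-10). For I-BET-762 this log2 value was 0.58 (SE 0.07, limma adjusted p = 4.17e-06), which was just under the fold threshold of a call. It passed that threshold at 0.60 without DMSO replicate 14, at 0.61 without I-BET-762 replicate 21 and at 0.59 without I-BET-762 replicate 22. The exons of LTO1 on the opposite strand overlap 10.4% of the exon length of CCND1, and the strand setting of the read counting was not given in the sources used here. LTO1 had a mean of 554 normalized counts in DMSO, 976 with JQ1 and 833 with I-BET-762.

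CCND2 (ENSG00000118971.9, hg38 chr12:4269771-4305353, plus strand) encodes cyclin D2. It had 6675, 6801 and 6736 normalized counts in the DMSO libraries, 1749, 1819, 1813 and 1981 with JQ1, and 2526, 2517 and 2574 with I-BET-762. The spread within each group was small beside the distance between groups, and again no groups overlapped. CCND2 fell by 1.87 on the log2 scale with JQ1 (SE 0.05, limma adjusted p = 3.8e-14), which is 3.66-fold lower, and by 1.41 with I-BET-762 (SE 0.05, limma adjusted p = 5.81e-12), which is 2.65-fold lower. Of all tested genes, 7.29% had a larger absolute change with JQ1 and 8.37% with I-BET-762. A same-strand annotated transcript shares 12.5% of its exon length and could share its reads.

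CCND3 (ENSG00000112576.13, hg38 chr6:41934934-42050357, minus strand) encodes cyclin D3, the D-type cyclin best known from lymphoid cells. In the DMSO libraries it had 1485, 1528 and 1379 normalized counts, 1709, 1730, 1850 and 1967 with JQ1, and 1793, 1690 and 1771 with I-BET-762. Every treated library was above every DMSO library, but the log2 fold changes of 0.31 (SE 0.06, limma adjusted p = 0.000231) and 0.26 (limma adjusted p = 0.0023) did not reach 1.5-fold. Giving all libraries the same total shifted the median of all tested genes by -0.185 with JQ1 and by -0.0967 with I-BET-762 on the log2 scale. On that scaling, called equal totals below, the CCND3 values were 0.12 (adjusted p = 0.106) and 0.16 (adjusted p = 0.0563).

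The balance between the D-type cyclins was compared within each library, where the scaling between libraries cancels. The log2 ratio of CCND2 to CCND1 was 0.30 ± 0.02 in the 3 DMSO libraries, -2.69 ± 0.19 in the 4 JQ1 libraries and -1.69 ± 0.05 in the 3 I-BET-762 libraries (mean ± SD). The ratio was thus 7.96-fold lower with JQ1 (exact two-sided permutation test over libraries, p = 0.0571) and 3.97-fold lower with I-BET-762 (exact two-sided permutation test, p = 0.1). Each p is the smallest that the group sizes allow, so these tests could not pass 0.05.

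To compare levels between genes, normalized counts were divided by the annotated exon length in kilobases. This length joins all annotated exons of a gene, used in these cells or not, so comparisons between genes are approximate. On this per kilobase scale, CCND1 supplied 51.2 ± 0.18% of the summed D-type cyclin level in the DMSO libraries, 82.1 ± 1.79% under JQ1 and 73.4 ± 0.87% under I-BET-762 (mean ± SD of 3, 4 and 3 libraries, as in the values that follow). The share of CCND2 was 37.5 ± 0.53% in DMSO, 7.59 ± 0.82% with JQ1 and 13.6 ± 0.35% with I-BET-762. CCND3 supplied 11.3%, 10.4% and 13.0%. That CCND1 was larger than CCND2 in DMSO rests on the division by exon length. In undivided normalized counts CCND2 was above CCND1 in every DMSO library, with means of 6737 and 5475. The summed D-type level was 2248 ± 43.6 per kilobase in DMSO (range 2212 to 2296), 3056 ± 259 with JQ1 (range 2686 to 3282) and 2344 ± 89.1 with I-BET-762 (range 2283 to 2446). The JQ1 libraries were above both other groups in this sum, whereas the I-BET-762 and DMSO ranges overlapped. Normalized totals were also higher in JQ1 (39218686 to 41845407) than in DMSO (34444558 to 35683740) and I-BET-762 (37196649 to 37829697). JQ1 replicate 18 had the lowest D-type sum (2686) and the highest normalized total (41845407) of its group. At equal totals its sum would not lie above every DMSO and every I-BET-762 library, so the separation of JQ1 depended on the scaling. The D-type transcript pool was thus dominated by CCND1 in all treated libraries, with a sum that did not separate I-BET-762 from DMSO.

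**Figure D2:**
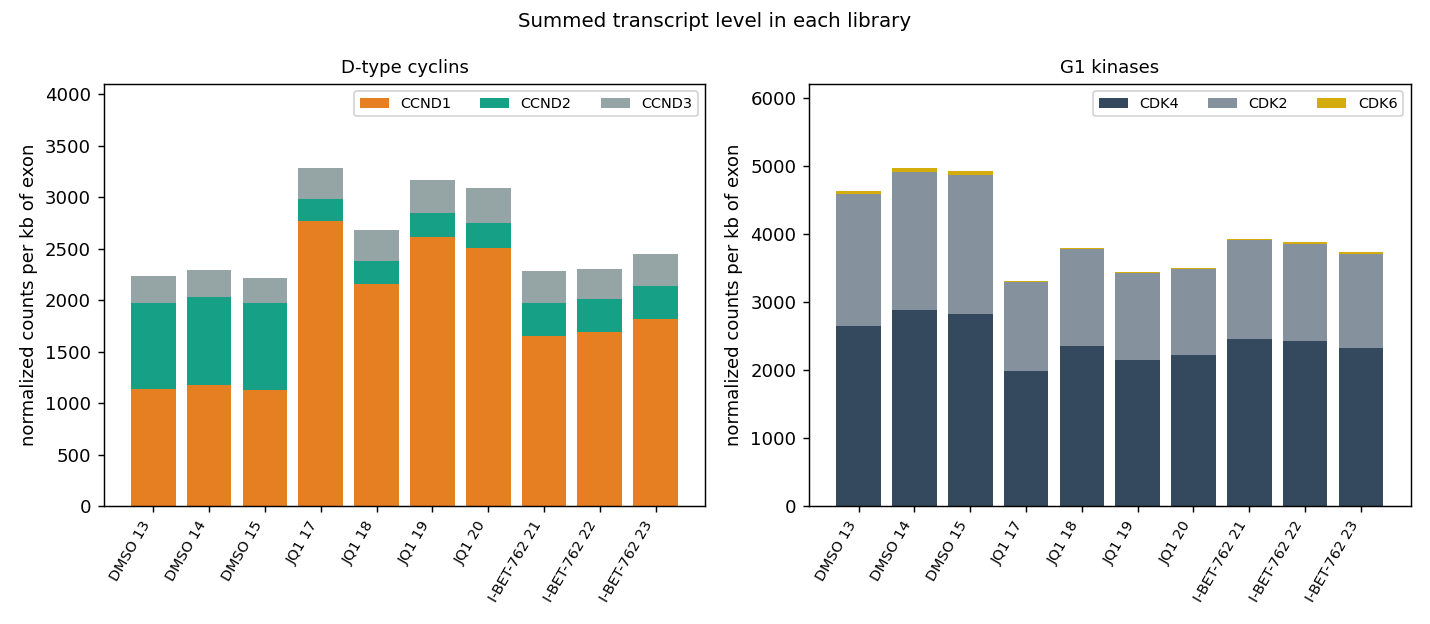
Summed level of the D-type cyclin genes (left) and of the G1 kinase genes (right) in each library, in normalized counts per kilobase of exon, stacked by gene. CCND2 shrinks from 37.5% to 7.59% and 13.6% of the D-type sum with JQ1 and I-BET-762, and the kinase sum is lower in every treated library than in every DMSO library.

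The E-type cyclin genes showed small differences that did not reach 1.5-fold. CCNE1 (ENSG00000105173.14, hg38 chr19:29811991-29824312, plus strand) encodes cyclin E1. Its normalized counts were 1639, 1904 and 1693 in DMSO, 1581, 1633, 1677 and 1707 with JQ1, and 1506, 1535 and 1504 with I-BET-762. JQ1 and DMSO overlapped, with a log2 fold change of -0.08 (95% interval -0.20 to 0.04, limma adjusted p = 0.227), which was -0.26 after rescaling to equal totals (adjusted p = 0.000612). The I-BET-762 libraries were all lower than DMSO, with a log2 fold change of -0.20 (limma adjusted p = 0.00951) that gave an adjusted p of 0.0727 without DMSO replicate 14.

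CCNE2 (ENSG00000175305.18, hg38 chr8:94879770-94896678, minus strand) encodes cyclin E2, the other E-type cyclin that activates CDK2. It had 2423, 2697 and 2700 normalized counts in the DMSO libraries, 3018, 3823, 3013 and 2927 with JQ1, and 3192, 3271 and 3212 with I-BET-762. All treated libraries exceeded all DMSO libraries, and JQ1 replicate 18 stood above the rest of its group. The log2 fold changes were 0.29 with JQ1 (SE 0.08, limma adjusted p = 0.00334) and 0.31 with I-BET-762 (limma adjusted p = 0.00405), and the first was 0.10 after rescaling to equal totals (adjusted p = 0.164). Exons of INTS8 on the opposite strand overlap 37.0% of the exon length of CCNE2, and INTS8 had means of 4295, 8187 and 7034 normalized counts in DMSO, JQ1 and I-BET-762. Whether reads of INTS8 entered the CCNE2 counts was not tested.

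Within libraries, the log2 ratio of CCNE2 to CCNE1 was higher than in DMSO by 0.37 with JQ1 (exact two-sided permutation test, p = 0.0571) and by 0.51 with I-BET-762 (exact two-sided permutation test, p = 0.1), again the smallest values possible. Per kilobase, CCNE1 supplied 54.4 ± 1.49% of the E-type sum in DMSO, 48.1 ± 3.41% with JQ1 and 45.6 ± 0.10% with I-BET-762. On this scale the larger E-type gene was CCNE1 in the DMSO libraries and CCNE2 in the I-BET-762 libraries. The JQ1 libraries were mixed, with CCNE1 shares of 43.3% to 51.0%. This order rests on the division by exon length. In undivided normalized counts CCNE2 was above CCNE1 in every library, with means of 2607 and 1745 in DMSO. The ratio of the D-type to the E-type sum was 1.73 ± 0.09 in DMSO, 2.2 ± 0.31 under JQ1 and 1.74 ± 0.08 under I-BET-762. The JQ1 range of 1.75 to 2.47 overlapped the other groups.

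All 3 kinase genes had lower values in every treated library than in every DMSO library, and CDK6 changed most. Such separation from DMSO, in either direction, was found for 68.4% of tested genes with JQ1 and 71% with I-BET-762. CDK6 (ENSG00000105810.10, hg38 chr7:92604921-92836573, minus strand) encodes the partner kinase of D-type cyclins that is prominent in blood cells. In the DMSO libraries it had 658, 637 and 672 normalized counts, 200.0, 210.0, 198 and 229 with JQ1, and 271, 303 and 294 with I-BET-762. The JQ1 libraries were also all below the I-BET-762 libraries. CDK6 fell by 1.64 on the log2 scale with JQ1 (SE 0.08, limma adjusted p = 6.02e-11), 3.13-fold lower, and by 1.18 with I-BET-762 (SE 0.09, limma adjusted p = 1.58e-08), 2.26-fold lower. Larger absolute changes were found for 9.34% of tested genes with JQ1 and 11.5% with I-BET-762.

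CDK4 (ENSG00000135446.17, hg38 chr12:57747727-57756013, minus strand) encodes the other partner kinase of D-type cyclins. Its normalized counts were 8186, 8940 and 8757 in DMSO, 6154, 7292, 6625 and 6891 with JQ1, and 7603, 7507 and 7189 with I-BET-762. The values in all treated libraries were lower than in DMSO, by less than 1.5-fold. The log2 fold change was -0.36 with JQ1 (SE 0.06, limma adjusted p = 2.82e-05) and -0.21 with I-BET-762 (SE 0.06, limma adjusted p = 0.00553). The exons of TSPAN31 on the opposite strand overlap 44.2% of the exon length of CDK4, and TSPAN31 had means of 385, 644 and 553 normalized counts in DMSO, JQ1 and I-BET-762. Whether its reads entered the CDK4 counts was not tested.

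CDK4 was the far more abundant of these kinases. Per kilobase, CDK6 made up 1.89 ± 0.11% of the CDK4 and CDK6 sum in DMSO, 0.78 ± 0.05% with JQ1 and 0.98 ± 0.07% with I-BET-762. The within-library log2 ratio of CDK6 to CDK4 was lower than in DMSO by 2.44-fold with JQ1 (exact two-sided permutation test, p = 0.0571) and 1.95-fold with I-BET-762 (exact two-sided permutation test, p = 0.1), the smallest p values that the group sizes allow. The fall of CDK6 thus took little from the summed kinase level, which followed CDK4 and CDK2.

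CDK2 (ENSG00000123374.11, hg38 chr12:55966781-55972789, plus strand) encodes the kinase that E-type cyclins activate. It had 7545, 7882 and 7933 normalized counts in the DMSO libraries, 5075, 5508, 4997 and 4901 with JQ1, and 5646, 5557 and 5386 with I-BET-762. The treated libraries lay below DMSO, and the inhibitor groups overlapped each other. Exons of an annotated long non-coding RNA on the opposite strand overlap 14.5% of its exon length. CDK2 fell 1.52-fold with JQ1, a log2 fold change of -0.61 (SE 0.05, limma adjusted p = 1.24e-08), just past the fold threshold. For I-BET-762 this log2 value was -0.49 (SE 0.05, limma adjusted p = 5.75e-07), and it was -0.59 and past the threshold after rescaling to equal totals. The sum of CDK2, CDK4 and CDK6 per kilobase was 4845 ± 179 in DMSO, 3513 ± 202 under JQ1 and 3849 ± 103 under I-BET-762.

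RB1 and E2F1, the restraint and the effector at the end of this pathway, were not called with either inhibitor. RB1 (ENSG00000139687.16, hg38 chr13:48303744-48599436, plus strand) had normalized counts of 373, 323 and 316 in DMSO, 374, 345, 350.2 and 355 with JQ1, and 305, 347 and 368 with I-BET-762. The 3 groups overlapped. The log2 fold changes were 0.08 with JQ1 (95% interval -0.11 to 0.27, limma adjusted p = 0.425) and 0.01 with I-BET-762 (95% interval -0.19 to 0.21, limma adjusted p = 0.922), so the intervals exclude a change of 1.5-fold in either direction. Both values turned negative after rescaling to equal totals.

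E2F1 (ENSG00000101412.13, hg38 chr20:33675477-33686385, minus strand) had normalized counts of 1731, 1797 and 1652 in DMSO, 1978, 1671, 1876 and 1958 with JQ1, and 1842, 1951 and 1858 with I-BET-762. The JQ1 and DMSO libraries overlapped, while the I-BET-762 libraries were slightly above DMSO. The log2 fold changes of 0.11 (95% interval -0.02 to 0.24, limma adjusted p = 0.108) and 0.13 (95% interval -0.01 to 0.26, limma adjusted p = 0.107) likewise stayed within 1.5-fold. With JQ1, the value was 0.17 (adjusted p = 0.00556) without JQ1 replicate 18 and -0.07 after rescaling to equal totals. With I-BET-762, the adjusted p was 0.0242 in a fit of only the 2 groups compared, and the value was 0.03 after rescaling to equal totals.

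**Figure D3:**
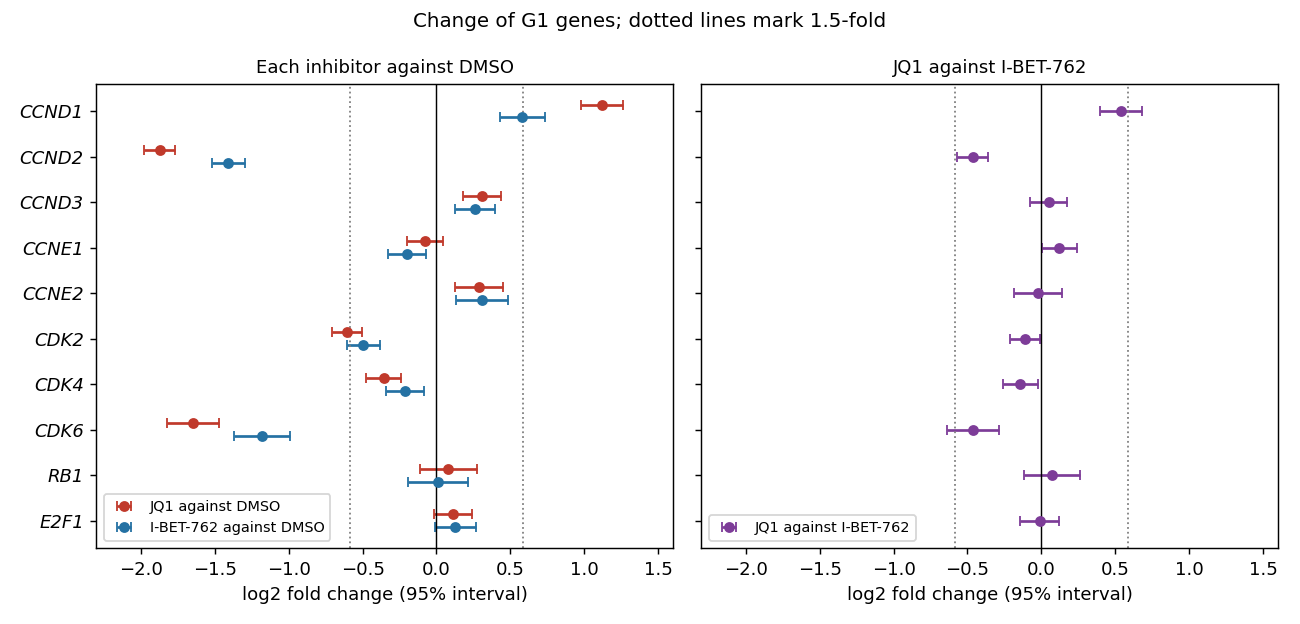
Log2 fold changes (horizontal axes) of the 10 G1 genes with their 95% limma intervals, for each inhibitor against DMSO (left, red JQ1 and blue I-BET-762) and for JQ1 against I-BET-762 (right). Dotted lines mark 1.5-fold. CCND1, CCND2, CDK2 and CDK6 pass them with JQ1, CCND2 and CDK6 with I-BET-762, and no gene in the direct comparison.

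As a set, the 10 genes were called about as often as tested genes in general. With JQ1, 1 of 10 was called higher and 3 lower, beside 13.3% and 22.8% of all tested genes. With I-BET-762, 0 were called higher and 2 lower by limma, beside 8.96% and 17.9% (limma-voom on the recovered reads gave the same counts, and at an unadjusted p under 0.05 without a fold threshold 3 were higher and 5 lower, beside 31.8% and 33.2% of tested genes). Without the fold threshold, 7 genes passed the adjusted p with JQ1 and 8 with I-BET-762, against 71.7% and 61.1% of tested genes. For 7 genes all JQ1 libraries lay outside the DMSO range and on 1 side of it, and for 9 genes all I-BET-762 libraries did, beside 68.4% and 71% of tested genes. The median log2 fold change of the 10 genes was 0.00 for JQ1 and -0.09 for I-BET-762, beside 0.01 and 0.00 for all tested genes.

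The compounds, given at the same dose and time, differed in the size of the change of 3 of the 10 genes. In the direct comparison, 0 of the 10 genes were called by limma or by limma-voom, beside 1.73% of tested genes higher and 3.59% lower with JQ1. At an adjusted p under 0.05 alone 3 genes passed, beside 27.3% of tested genes, and at an unadjusted p under 0.05 2 were higher and 4 lower, beside 19.2% and 19.5%. CCND1 was higher with JQ1 than with I-BET-762 by a log2 difference of 0.54 (95% interval 0.40 to 0.68, limma adjusted p = 3.8e-05), and without JQ1 replicate 18 this was 0.61 and past 1.5-fold. For CCND2 the log2 difference was -0.47 (95% interval -0.57 to -0.36, limma adjusted p = 7.27e-06). For CDK6 it was -0.47 as well (95% interval -0.64 to -0.29, limma adjusted p = 0.000775). Each of these differences had the sign of the effect of both compounds.

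For the other 7 genes the compounds did not differ at an adjusted p of 0.05, which does not show that they act alike. The 95% intervals of the log2 difference were -0.08 to 0.18 for CCND3, 0.00 to 0.24 for CCNE1, -0.19 to 0.14 for CCNE2, -0.12 to 0.26 for RB1 and -0.14 to 0.12 for E2F1. They were -0.21 to -0.01 for CDK2 and -0.26 to -0.02 for CDK4, and both genes passed an adjusted p of 0.05 without JQ1 replicate 18 (adjusted p = 0.00796 and 0.00827) and after rescaling to equal totals (adjusted p = 0.000803 and 0.00125). CDK4 also passed after rescaling to equal upper quartiles (adjusted p = 0.0354). None of these intervals reached 1.5-fold.

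The order of levels per kilobase changed with treatment. In DMSO it was CDK4 (2789 normalized counts per kilobase), CDK2 (2003), CCND1 (1150), CCND2 (843), CCNE1 (709), E2F1 (642), CCNE2 (593), CCND3 (254), CDK6 (53.6) and RB1 (52.4). The library ranges of CCNE1 and E2F1, of E2F1 and CCNE2, and of CDK6 and RB1 overlapped, so those neighbours were not told apart by their spread. The place of CCND1 above CCND2 in DMSO rests on the division by exon length. With JQ1, CCND1 (2511) took the first place with a range that overlapped that of CDK4 (2179), CCND2 dropped to the eighth place at 230, and CDK6 was last at 17.1, below RB1 at 55.3. With I-BET-762, CDK4 stayed first at 2402, CCND1 came second at 1722, CCND2 was at 318 and CDK6 was last at 23.6. On this scale RB1 was low, with 69.5% of the tested genes that could be given a length above it in DMSO. For CDK4 this share was 2.97%.

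**Figure D4:**
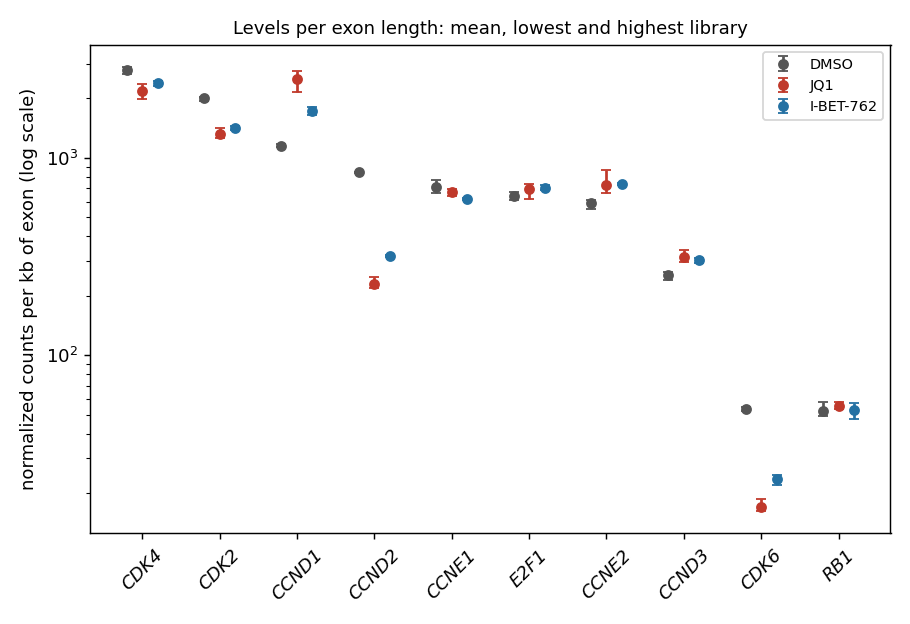
Level of each G1 gene in normalized counts per kilobase of exon on a log axis, ordered by the DMSO mean, with the group mean (point) and the lowest and highest library (bars). The mean of CCND1 moves above that of CDK4 in the JQ1 group, where their ranges overlap. CDK6 moves from the level of RB1 in DMSO (53.6 and 52.4) to below it with both inhibitors.

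Genes whose profile over the 10 libraries was nearest to the 2 G1 genes called with both inhibitors were sought among 11071 tested genes whose mean normalized count reached 100. Nearness was the root mean square difference of centred log2 values. Nearest to CCND2 were MAPKAPK3 (0.06), LRRC41 (0.06) and TDRD12 (0.07), where the median gene was at 0.83. Nearest to CDK6 were TGFBRAP1 (0.07), PIP4K2C (0.08) and PRDX2 (0.08), where the median gene was at 0.73. The genes nearest to CCND2 lay outside the G1 lists, with log2 fold changes for MAPKAPK3 of -1.93 with JQ1 and -1.35 with I-BET-762. Picked as the nearest of 11071, such genes must lie below the median. Whether they are closer than the nearest genes of other genes was not tested.

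Around the 10 genes, 58 other tested genes of the G1 pathway were read from the same fit. With JQ1, 8 rose and 10 fell, and with I-BET-762, 4 rose and 7 fell, with list medians of 0.04 and 0.00 on the log2 scale. The shares of all tested genes called higher and lower were 13.3% and 22.8% with JQ1 and 8.96% and 17.9% with I-BET-762, and the counts of the other G1 genes were near or below these shares. After rescaling to equal totals 4 rose and 16 fell with JQ1, and 3 rose and 11 fell with I-BET-762. Of the 11 RB family, E2F and DP genes, the proteins that meet at E2F target promoters, 4 were called under JQ1 (median -0.39) and 3 under I-BET-762 (median -0.29), each of them lower, beside 22.8% and 17.9% of tested genes. At equal totals 5 of these 11 were lower with JQ1 and 4 with I-BET-762. E2F2, an activating E2F, had 1404 to 1503 normalized counts in DMSO, 388 to 449 under JQ1 and 567 to 605 under I-BET-762. It fell by 1.78 and 1.29 on the log2 scale (limma adjusted p = 1.94e-12 and 4.91e-10). The repressive E2F8 fell by 1.13 and 0.82 and E2F7 by 0.90 and 0.62. RBL2, the RB relative p130, fell by 1.004 with JQ1 and had a log2 fold change of -0.49 with I-BET-762. E2F1, another activating E2F, was at 0.11 and 0.13 on the same scale.

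The CDK inhibitor genes were split, with 1 of 6 tested called higher and 1 lower for each inhibitor. All tested genes gave 13.3% higher and 22.8% lower with JQ1, and 8.96% and 17.9% with I-BET-762. At equal totals 1 was higher and 2 were lower with JQ1, and 1 was higher and 3 were lower with I-BET-762. CDKN1A, which encodes p21, rose by 2.45 on the log2 scale with JQ1 and by 1.22 with I-BET-762 (limma adjusted p = 3.98e-13 and 6.7e-09), and the direct comparison gave a log2 difference of 1.23 (limma adjusted p = 8.19e-08). CDKN2C, which encodes p18, an inhibitor of CDK4 and CDK6, fell by 1.07 and 0.86. CDKN1B, CDKN2A, CDKN2B and CDKN2D were not called, with log2 fold changes of -0.54, -0.15, -0.11 and -0.09 with JQ1 and -0.51, -0.57, -0.12 and 0.10 with I-BET-762. CDKN2A ranged from 3823 to 7230 normalized counts among the JQ1 libraries alone, and CDKN1C was too low to be tested.

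The next list holds genes that control the stability of G1 proteins. Of 9 tested, 5 rose and 2 fell with JQ1 (median 0.60), and 2 rose and 1 fell with I-BET-762 (median 0.32). Beside these stand 13.3% higher and 22.8% lower of all tested genes with JQ1, and 8.96% and 17.9% with I-BET-762. The rises depended on the scaling, and after rescaling to equal totals 2 rose and 2 fell with JQ1 and 1 rose and 2 fell with I-BET-762. SKP1, a core subunit of the SCF ubiquitin ligases, rose by 0.93 and 0.71, and FBXO31, an F-box protein that targets cyclin D1, rose by 0.76 and 0.64. FBXO4, another F-box protein, fell by 0.96 and 0.99. On that scaling FBXO31 was at 0.58 and 0.54, under the threshold with both inhibitors. With JQ1, CKS2, which binds CDKs, was then at 0.47 and the F-box gene FBXW7 at 0.41, also under it, and FBXW7 was under it without DMSO replicate 13 or JQ1 replicate 18 as well.

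Of 7 genes of the MuvB complex, which directs cell cycle genes, and its partners, 2 were called for JQ1 and 1 for I-BET-762, each lower, with medians of -0.52 and -0.29, beside 22.8% and 17.9% of tested genes called lower. At equal totals 4 were lower with JQ1 and 1 with I-BET-762. FOXM1, a factor that drives late cell cycle genes, fell by 1.62 and 0.99 (limma adjusted p = 1.5e-11 and 2.59e-08). Of 20 E2F target genes, 1 rose and 1 fell with JQ1, beside 13.3% and 22.8% of all tested genes. Only 1, lower, was called for I-BET-762, beside 8.96% of all tested genes called higher and 17.9% lower. The list medians were 0.07 and 0.07 on the log2 scale. At equal totals 1 rose and 3 fell with JQ1. MCM5, a subunit of the replicative helicase, fell by 1.04 and 0.66, and RRM2, a subunit of ribonucleotide reductase, was the one that rose with JQ1, by 0.88. As a list, the targets of E2F lay near the median of all tested genes.

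Of 5 genes that activate CDKs, 1 was called higher with both inhibitors, beside 13.3% of all tested genes with JQ1 and 8.96% with I-BET-762. This gene was CDK7, and its call rested on few libraries. Its normalized counts were 10.7, 13.9 and 10.9 in DMSO, 14.3, 16.3, 188 and 112 with JQ1, and 17.7, 100.3 and 100.4 with I-BET-762. High values appeared in only some libraries of each treated group. The log2 fold changes were 1.94 (SE 0.76, limma adjusted p = 0.031) and 2.18 (SE 0.81, limma adjusted p = 0.0285). The call held in 7 of 15 alternatives with JQ1 and in 8 of 14 with I-BET-762. Among others it was lost without JQ1 replicate 19 or 20 and without I-BET-762 replicate 22 or 23, and the adjusted p reached 0.11 and 0.121.

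**Figure D5:**
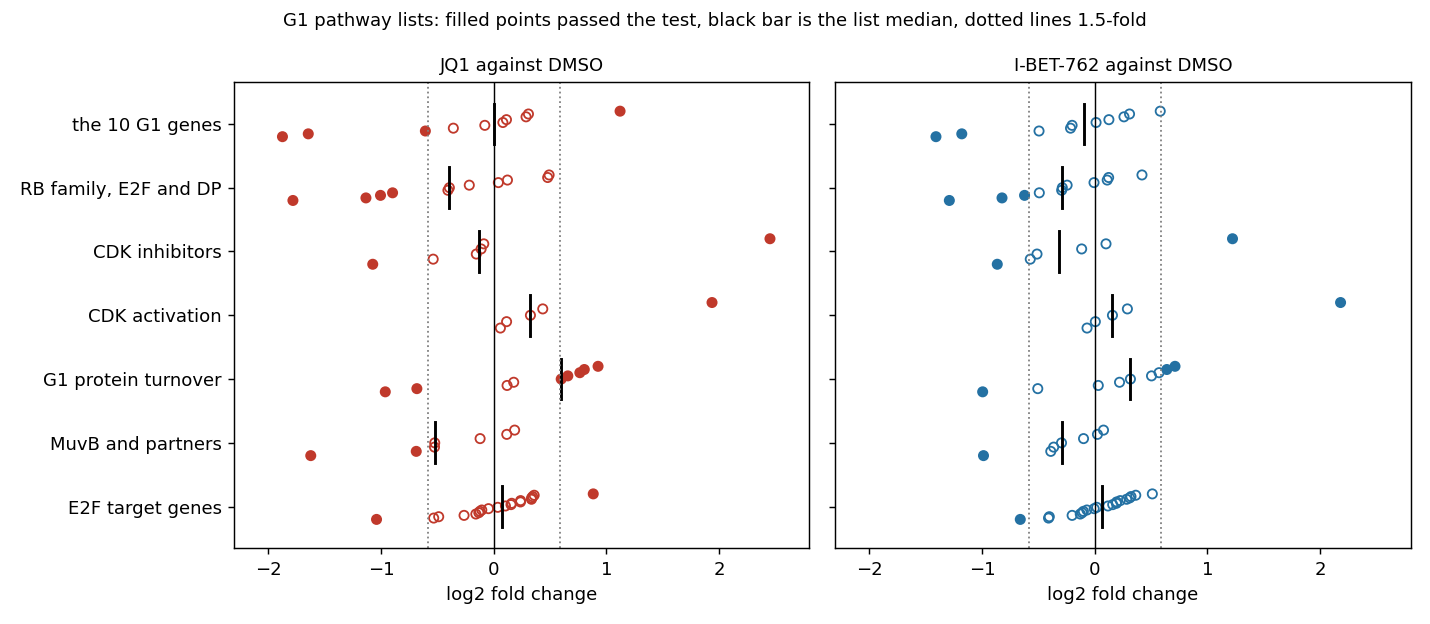
Log2 fold change (horizontal axis) of the 10 G1 genes and of each gene of the 6 surrounding G1 lists with JQ1 (left) and I-BET-762 (right). Filled points were called, black bars are list medians and dotted lines mark 1.5-fold, and the medians run from -0.52 (MuvB and partners) to 0.60 (G1 protein turnover) with JQ1.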

How the data were processed

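RNA of SK-UT-1 cells was sequenced from 12 labelled samples, 4 per group, and values of 10 libraries were analysed. Per the labels and the methods, the authors prepared strand-specific libraries, checked reads with FastQC 0.73, trimmed them with Trimmomatic, aligned them to hg38 with HISAT2 2.2.1, counted them with featureCounts 2.0.3 on Gencode 41 genes and normalized with DESeq2, after leaving out samples they judged to be outliers. The values deposited by the authors are log2 of the normalized count plus 1, per gene symbol and library. Of these values, 99.7% were whole multiples of 1 step per library (tolerance 0.001 reads), which gave the reads behind them. The strand setting of the counting, and how identifiers were merged into symbols, are not given in the sources used here. Gene positions and exon lengths came from Gencode 44, and a length was found for 14394 of the 14839 tested symbols (97%). None of the 75-base stretches of the exons of the 10 genes had an exact copy elsewhere in 194 reference sequences.

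A linear model from limma 3.58.1 (R 4.3.3) was run on the log2 values (pseudocount 1), with 10 libraries and 3 groups together, moderation with an intensity trend and Benjamini-Hochberg adjustment over 14839 symbols. The code was tested on simulated data. Ratios within a library were compared by exact permutation tests. Tables were made with Python 3.11.15, numpy 2.4.6, pandas 2.3.3, scipy 1.17.1 and matplotlib 3.10.9. The floor for a gene with no reads is 3 reads, for counting error only. The 10 genes and all lists were chosen with earlier results of these data known. Named beside the 10 genes were, from each list, up to 3 rises and 3 falls called with both inhibitors, all CDK inhibitors, and the 3 nearest profiles. RBL2, RRM2, CKS2 and FBXW7 were added after their values were seen. Alternatives were other pseudocounts (0.5 and 5), filters, scalings, moderation without a trend, a fit of only the 2 groups compared, limma-voom on the recovered reads, other fold thresholds and leaving out each library.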

Additional observations from a re-analysis of the deposited data

Results flagged for a closer look

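CCNE2 in JQ1 replicate 18 was set apart from the other JQ1 libraries. Its log2 value was 11.9, and its gap to the nearest library was 0.885 of the range of the group. This is above the 95% critical value of Dixon for 4 samples, which chance passes in about 1 of 20 groups. Without that library the log2 fold change of CCNE2 with JQ1 was 0.20. The same library had the lowest CCND1 and E2F1 and the highest CDK2 and CDK4 of the JQ1 group.

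The changes of 3 genes differed between the inhibitors by the direct limma comparison, with log2 differences of JQ1 from I-BET-762 of 0.54 for CCND1 (adjusted p = 3.8e-05), -0.47 for CCND2 (adjusted p = 7.27e-06) and -0.47 for CDK6 (adjusted p = 0.000775). In each case all 4 JQ1 libraries lay beyond all 3 I-BET-762 libraries, on the side away from DMSO. An adjusted p under 0.05 in this comparison was reached by 27.3% of all tested genes. Among all 14839 tested genes, every JQ1 library lay above every I-BET-762 library for 2591 and below for 2426. For the 10 G1 genes these counts were 2 and 2.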

How the results depend on the processing

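No paired analysis was possible because the replicate numbers of the labels, 13 to 24, are all different, so that no replicate block could be fitted. CCND2 and CDK6 with both inhibitors and CCND1 and CDK2 with JQ1 kept their direction and their call in every alternative run, except that CDK2 did not reach a fold threshold of 2. CDK2 with JQ1 ranged from -0.79 to -0.59 on the log2 scale, close to the threshold. The within-library ratios kept their sign in every alternative.

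With no fold threshold, 10633, 9073 and 4047 genes passed with JQ1, with I-BET-762 and in JQ1 against I-BET-762 (5358, 3991 and 788 with the threshold of 1.5), 2958, 2108 and 206 with a threshold of 2, and 3359, 2338 and 418 among genes whose mean normalized count reached 100. Of the 10 G1 genes, 7, 8 and 3 passed with no fold threshold. Of the other G1 genes, 43, 39 and 17 passed with no fold threshold and 8, 3 and 1 with a threshold of 2. In JQ1 against I-BET-762, leaving out 1 library gave 0 to 1 calls among the 10 genes (1, CCND1, without JQ1 replicate 18) and 1 to 2 among the other G1 genes (1 without JQ1 replicate 17).

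Rescaling to equal totals raised the share of lower among called genes from 63.1% to 77.7% with JQ1, from 66.7% to 75.7% with I-BET-762 and from 67.5% to 82.2% in the direct comparison. It reversed RB1 (-0.10) and E2F1 (-0.0718) with JQ1, RB1 with I-BET-762 (-0.0841), and CCND3 (-0.0401) and RB1 (-0.0191) in the direct comparison, none of which was called, and it brought CDK2 with I-BET-762 (-0.59) past the threshold. Leaving out 1 library gave RB1 with I-BET-762 -0.0473 to 0.0880, CCND1 with I-BET-762 0.54 to 0.61, and in the direct comparison CCNE2 -0.111 to 0.0174, E2F1 -0.0405 to 0.0405 and RB1 -0.00654 to 0.129. Where equal totals turned a sign, the shift it gave all genes was larger than the change. The other causes were not tested.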
